A study of Homo sapiens with 14 samples.

Results

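Notch receptors, their ligands and the HES and HEY repressors downstream of them were followed in HEK293T cells that lack SETD2. The set held 9 genes, and each was found by an anchor transcript and a point on the hg19 genome: the receptors NOTCH1, NOTCH2 and NOTCH3, the ligands DLL1 and JAG1, and the target genes HES1, HES4, HES5 and HEY1. The 9 loci held 44 of the 204092 transcripts in the deposited tables, at 9 of 35671 loci. The genes were chosen with the knockout and wild type values of these same tables in view, so all values below are descriptions of the chosen genes and none is a test of them. Gene names follow the positions that came with the selection, since the tables pair no transcript with a name; the RefSeq chromosome of each symbol was that of its anchor for 9 of 9 genes.

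The groups were SETD2 knockout (KO) HEK293T cells and wild type (WT) HEK293T cells, with 3 libraries of total RNA listed for each. The labels give depletion of ribosomal RNA for 3 KO and 2 WT libraries, while the other WT library carries the protocol of the ChIP samples. HEK293T is an SV40 T antigen-bearing line from human embryonic kidney. SETD2 is the enzyme that trimethylates lysine 36 of histone H3 along transcribed genes. The labels give no drug treatment, no time point, and no word on whether the knockout cells were a single clone or whether libraries came from separate cultures. The tables hold 1 FPKM value per transcript and group (fragments scaled to transcript length and to all mapped fragments), so the depth of the libraries and the spread between them are unknown. The level of SETD2 itself and the 8 ChIP samples of the series were not analysed here.

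Notch receptors are single-pass membrane proteins that are cut when they bind a ligand of the Delta or Jagged family on a neighbouring cell. The released intracellular domain enters the nucleus, joins the DNA-binding protein RBPJ and a Mastermind co-activator, and turns on genes of the HES and HEY families. Those genes encode basic helix-loop-helix repressors, which hold back differentiation in neural and other progenitors. RBPJ recognises the core motif TGGGAA, which stands in capitals in the stretches below.

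The promoters of the 3 HES genes are shown because HES genes are the classic targets of RBPJ and TGGGAA was found in each. Each stretch is the 250 bases before the RefSeq start of the gene, on the strand of the gene (RefSeq, GRCh38.p14). The stretch of HES5 is chr1:2530264-2530513 on the minus strand, that of HES4 is chr1:1000098-1000347 on the minus strand, and that of HES1 is chr3:194135898-194136147 on the plus strand. Capitals mark TGGGAA or its reverse complement TTCCCA.
HES5: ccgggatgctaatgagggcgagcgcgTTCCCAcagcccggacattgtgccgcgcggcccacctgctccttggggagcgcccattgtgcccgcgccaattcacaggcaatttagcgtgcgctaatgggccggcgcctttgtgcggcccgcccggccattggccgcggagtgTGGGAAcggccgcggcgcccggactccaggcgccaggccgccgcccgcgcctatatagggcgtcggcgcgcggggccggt
HES4: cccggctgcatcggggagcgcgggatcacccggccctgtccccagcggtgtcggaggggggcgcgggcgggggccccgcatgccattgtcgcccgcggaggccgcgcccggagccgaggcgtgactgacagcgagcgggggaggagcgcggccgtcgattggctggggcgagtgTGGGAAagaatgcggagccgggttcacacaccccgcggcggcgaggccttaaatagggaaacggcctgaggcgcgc
HES1: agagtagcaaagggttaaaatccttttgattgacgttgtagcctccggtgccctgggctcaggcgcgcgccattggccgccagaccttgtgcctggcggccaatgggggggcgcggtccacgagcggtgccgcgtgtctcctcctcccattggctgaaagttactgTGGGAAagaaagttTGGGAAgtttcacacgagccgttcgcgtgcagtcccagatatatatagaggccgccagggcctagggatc
A match began 80 bases before the start in HES5, 76 bases before it in HES4, and 84 bases before it in HES1. HES5 held a further match on the other strand at 224 bases, and HES1 a further match at 70 bases. In each of the 3 promoters a match lay within TGTGGGAA, a longer string chosen after the sequences were read. TGGGAA was present on either strand in 20.8% of 35116 RefSeq promoter stretches of the same length, and TGTGGGAA, which contains it, in 1.43%. At least 2 matches of TGGGAA, as in HES5 and HES1, were present in 2.90% of the stretches. Promoter stretches were found for 7 of the 9 genes. None was found for the target HEY1 or the ligand DLL1, so the motif could not be looked for there. TGGGAA was absent from the 4 stretches of NOTCH1, NOTCH2, NOTCH3 and JAG1. Of the motifs bound by HES and HEY repressors (either strand, N for any base), CACGTG was in none of the 7 stretches and CACNAG was matched 3 times in HES1 and at 1 place in NOTCH3, against 6.34% and 32.0% of all stretches with a match on either strand. A match of letters is a description and shows no binding.

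All 9 anchor transcripts were tested by the authors, and 3 passed a q-value of 0.05 in the authors' deposited table: HES5 and NOTCH3 fell in KO cells and JAG1 rose. Of all 85852 tested transcripts, 0.255% passed, 0.192% lower and 0.0629% higher in KO cells. None of the other 19 tested transcripts of the 9 loci passed, 16 transcripts were not tested, and 10 of these were listed at 0 in both groups. Because the genes were chosen on this comparison, their count is not read against that background. The median log2 ratio of knockout over wild type FPKM was -0.11 over the 9 anchors and 0.11 over the 56292 tested transcripts that were above 0 in both groups and reached 1 FPKM in either. In KO cells 3 anchors lay above and 6 below their wild type value. In RNA of a whole culture, less RNA per cell and fewer cells that express a gene cannot be told apart.

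**Figure D1:**
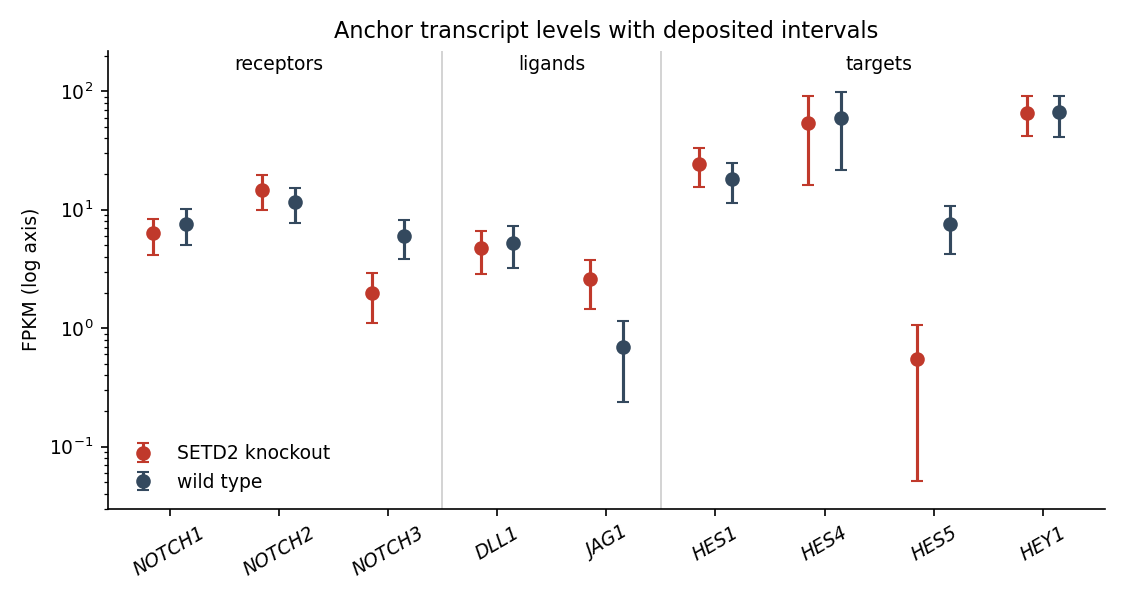
FPKM of the anchor transcript of each gene in SETD2 knockout (red) and wild type (dark blue) cells, on a log axis. Points are the group values of the FPKM tracking table and bars the intervals deposited with them; the bars of the groups stand apart for NOTCH3, JAG1 and HES5 and overlap for the other 6 genes.

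Each group is listed in a pair of deposited tables, a table of tests and an FPKM tracking table with a lower and an upper bound for each value, whose level is not given. For the 9 anchors the tracking value was 0.762 to 1.14 times the test-table value in KO cells and 0.975 to 0.977 times it in WT cells. Some other transcripts of these loci differed more in KO cells. A factor of 0.652 recurred across loci. It was found at ENST00000523531 of HEY1, ENST00000493703 and ENST00000478864 of NOTCH2, ENST00000601011 of NOTCH3 and ENST00000488480 of JAG1, among others. For ENST00000595514 of NOTCH3 the factor was 2.93. Why the same factor recurred was not tested. No source used here says which libraries, or how many, entered each table. Knockout values are therefore given from both tables where a result turns on them. No anchor changed direction between the tables. Intervals of the groups did not overlap for 3 of the 9 anchors, the same 3 that passed, while this held for 0.821% of 58215 tested transcripts of at least 1 FPKM. The genes were chosen with these values known, so nothing is read from that share either.

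Among the receptors, NOTCH3 differed most by ratio. NOTCH3, best known from vascular smooth muscle, lies at chr19:15270444-15311792. Its anchor ENST00000263388 stood at 2.35 FPKM in KO cells and 6.15 FPKM in WT cells, a 2.61-fold fall with p = 5e-05 and q = 0.0220 in the authors' deposited table. The tracking table gave 2.00 FPKM in KO cells (deposited interval 1.1 to 2.90 FPKM) and 6.0 FPKM in WT cells (3.83 to 8.17 FPKM); brackets after tracking values hold the deposited interval throughout. The knockout value was thus lower in both tables and its interval ended below the start of the wild type interval. The locus held 5 further transcripts, of which ENST00000595514 was the next most abundant in WT cells, at 0.668 FPKM in KO cells and 5.40 FPKM in WT cells. That transcript did not pass in the authors' deposited table (q = 0.991), and in the tracking table it stood at 1.96 FPKM in KO cells and 5.26 FPKM in WT cells, with overlapping intervals that reached down to 0. Summed over the locus, NOTCH3 held 4.73 FPKM in KO cells and 13.7 FPKM in WT cells.

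By anchor transcript, NOTCH2 was the most abundant receptor in both groups. By locus sum this held in KO cells only. In WT cells the NOTCH3 sum of 13.7 FPKM lay above the NOTCH2 sum of 12.1 FPKM, and 13.4 FPKM above 11.8 FPKM by tracking. NOTCH2, a widely expressed receptor needed for nephron formation in mice, lies at chr1:120454176-120612240. Its anchor ENST00000256646 stood at 17.4 FPKM in KO cells and 11.8 FPKM in WT cells, a ratio of 1.47 that did not pass in the authors' deposited table (p = 0.00600, q = 0.775). Tracking gave 14.7 FPKM in KO cells (9.95 to 19.5 FPKM) and 11.5 FPKM in WT cells (7.67 to 15.4 FPKM). These intervals overlapped. Human genomes carry partial copies of NOTCH2 (the NOTCH2NL genes), and no source used here says how reads were divided between the copies, so the level of NOTCH2 is uncertain.

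NOTCH1, the receptor mutated in many T-cell leukaemias, lies at chr9:139388896-139440314. Its anchor ENST00000277541 stood at 7.17 FPKM in KO cells and 7.82 FPKM in WT cells (p = 0.558, q = 0.991 in the authors' deposited table). By tracking, NOTCH1 stood at 6.30 FPKM in KO cells (4.18 to 8.43 FPKM) and 7.63 FPKM in WT cells (5.04 to 10.2 FPKM). The other 4 transcripts of the NOTCH1 locus together came to 0.116 FPKM in KO cells and 0.994 FPKM in WT cells.

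The summed level of the 3 receptor anchors was 26.9 FPKM in KO cells and 25.8 FPKM in WT cells in the test table, and 23.0 FPKM in KO cells and 25.2 FPKM in WT cells in the tracking table, so its direction depended on the table. Its make-up in the test table was as follows. NOTCH2 made up 64.6% of the sum in KO cells and 45.8% in WT cells, and NOTCH3 8.75% in KO cells and 23.8% in WT cells. NOTCH1 held 26.7% in KO cells and 30.3% in WT cells. The NOTCH2 anchor was 7.38 times the NOTCH3 anchor in KO cells and 1.92 times it in WT cells, and 7.36 and 1.92 times it in the tracking table. These shares and ratios hold for anchors alone, since the locus sums put NOTCH3 above NOTCH2 in WT cells.

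**Figure D2:**
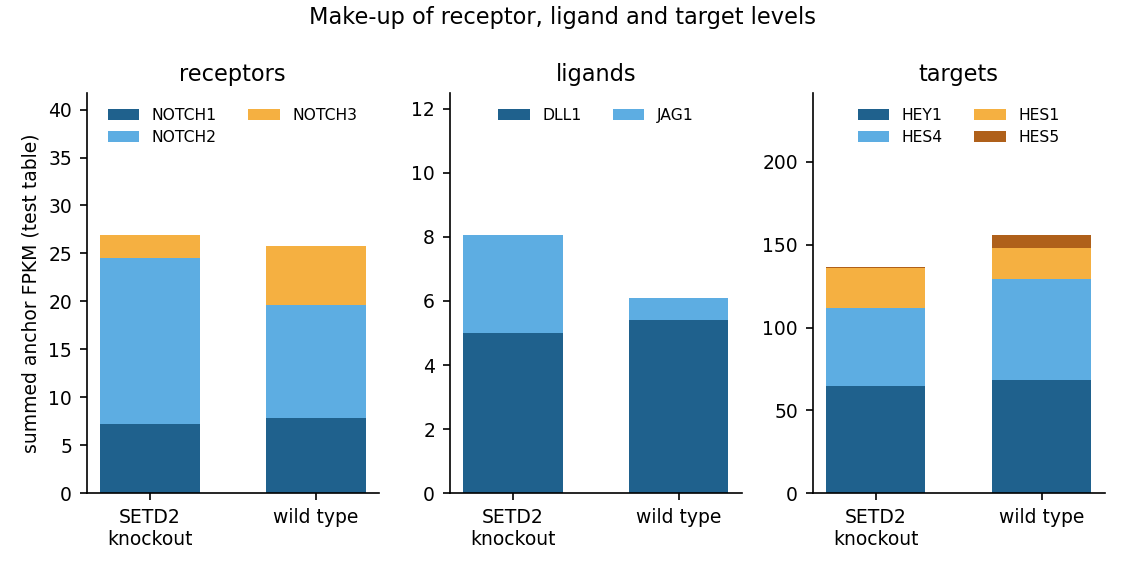
Summed FPKM of the anchor transcripts of the receptors, ligands and targets in SETD2 knockout (left bar) and wild type (right bar) cells, from the test table, with a separate linear axis for each set. The NOTCH3 and HES5 segments are smaller in KO cells and the JAG1 segment is larger, while the receptor sums are 26.9 FPKM in KO cells and 25.8 FPKM in WT cells, an order that is the other way in the tracking table.

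Of the ligands, JAG1 rose and DLL1 did not pass. JAG1, the Jagged ligand whose loss of a copy causes Alagille syndrome, lies within a merged locus at chr20:10618332-10975572. Its anchor ENST00000254958 stood at 3.04 FPKM in KO cells and 0.708 FPKM in WT cells, a 4.29-fold rise with p = 5e-05 and q = 0.0220 in the authors' deposited table. The tracking values were 2.60 FPKM in KO cells (1.44 to 3.76 FPKM) and 0.691 FPKM in WT cells (0.238 to 1.14 FPKM). The knockout value was higher in both tables, and the intervals stood apart. JAG1 was the lowest of the 9 anchors in WT cells. The merged locus spans 357 kb and lists 11 transcripts, 8 of them at 0 in both groups. The other transcripts above 0 were ENST00000423891, at 0.971 FPKM in KO cells and 0.325 FPKM in WT cells, and ENST00000488480, at 0.278 FPKM in KO cells and listed at 0 in WT cells. Neither passed. No source used here says whether the counting used strand, so transcripts that overlap on either strand may share reads.

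DLL1, a Delta ligand with a role in somite formation in mice, lies at chr6:170591294-170599561 and has a single transcript. It stood at 5.01 FPKM in KO cells and 5.39 FPKM in WT cells (p = 0.668, q = 0.991 in the authors' deposited table). The tracking table gave 4.71 FPKM in KO cells (2.85 to 6.58 FPKM) and 5.26 FPKM in WT cells (3.21 to 7.31 FPKM). The level of JAG1 was 0.606 times that of DLL1 in KO cells and 0.131 times it in WT cells, so JAG1 made up 37.8% of the summed level of these ligands in KO cells and 11.6% in WT cells. In the tracking table the ratio was 0.552 in KO cells and 0.131 in WT cells, and the JAG1 share 35.6% and 11.6%. DLL1 lay above JAG1 in both groups by value. In WT cells the intervals of these ligands stood apart, and in KO cells they overlapped.

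Of the target genes HES5 fell, while HES1, HES4 and HEY1 did not pass. HES5, a repressor that keeps neural progenitors undifferentiated in mice, lies at chr1:2460184-2461684, a locus of 1.5 kb with a single transcript, ENST00000378453. It stood at 0.725 FPKM in KO cells and 7.69 FPKM in WT cells, a 10.6-fold fall with p = 5e-05 and q = 0.0220 in the authors' deposited table. Its tracking value was 0.552 FPKM in KO cells (0.0514 to 1.05 FPKM) and 7.52 FPKM in WT cells (4.21 to 10.8 FPKM), a ratio of 13.6. The wild type interval began well above the end of the knockout interval. With a single transcript, the value of HES5 does not depend on how reads were split among transcripts of its locus. The smallest p the authors' table holds is 5e-05, so the p-values of HES5, NOTCH3 and JAG1 are among the 195 of 219 passing transcripts tied at that value and do not rank them.

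HES1, a much used readout of Notch signalling, lies at chr3:193853934-193856521. Its anchor ENST00000232424 stood at 24.2 FPKM in KO cells and 18.5 FPKM in WT cells, a ratio of 1.31 that did not pass in the authors' deposited table (p = 0.0936, q = 0.991). Its deposited intervals were 15.5 to 32.9 FPKM in KO cells and 11.4 to 24.7 FPKM in WT cells, and they overlapped. HES1 lay above its wild type value and HES5 below, and the level of HES1 was 33.3 times that of HES5 in KO cells and 2.40 times it in WT cells. In the tracking table the ratio was 43.8 in KO cells and 2.40 in WT cells. The knockout ratio is uncertain, since it rests on a HES5 value of 0.725 FPKM, or 0.552 FPKM by tracking. A test of the difference between the genes could not be made from group values. The HES1 locus lies in the last 20 Mb of chromosome 3, where 85 loci were above 0 in both groups and reached 1 FPKM. Their median log2 ratio of knockout over wild type was 0.27, with quartiles of -0.09 and 0.54. The HES1 sum was at 0.44, and 28 of these loci lay above it. Across the genome the median of the 12467 such loci was 0.06, and that of the 6 within 1 Mb of HES1 was 0.13. A window of 20 Mb was taken for HES1 alone, and no regional effect was tested.

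HEY1, a repressor of the HEY family and a Notch target in blood vessels, lies at chr8:80676245-80680098. Its anchor ENST00000354724 was the highest of the 9 in both groups, at 64.5 FPKM in KO cells and 68.0 FPKM in WT cells (p = 0.743, q = 0.991 in the authors' deposited table). The tracking table put it at 66.2 FPKM in KO cells (41.8 to 90.5 FPKM) and 66.4 FPKM in WT cells (41.1 to 91.8 FPKM). The other 7 transcripts of the locus came to 56.2 FPKM in KO cells and 39.8 FPKM in WT cells, and none of them passed. The anchor held 53.5% of the HEY1 sum in KO cells and 63.1% in WT cells, and 58.2% and 63.1% in the tracking table.

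HES4, a HES repressor that mice lack, lies at chr1:934342-935552, where 4 transcripts overlap within 1.21 kb. Its anchor ENST00000304952 stood at 47.2 FPKM in KO cells and 61.5 FPKM in WT cells (p = 0.370, q = 0.991 in the authors' deposited table). The most abundant transcript of the locus, ENST00000481869, stood at 51.2 FPKM in KO cells and 99.7 FPKM in WT cells and did not pass in the authors' deposited table either (p = 0.00150, q = 0.307). Each of the 4 transcripts lay below its wild type value in both tables, and the sum was 119.4 FPKM in KO cells and 219.3 FPKM in WT cells, a ratio of 1.84. In the tracking table the HES4 sum was 145.6 FPKM in KO cells and 214.2 FPKM in WT cells, a ratio of 1.47. The intervals of ENST00000481869 in that table, 23.0 to 83.8 FPKM in KO cells and 53.4 to 141.4 FPKM in WT cells, overlapped. Of the 9 locus sums, that of HES4 differed most in FPKM, and none of its transcripts passed.

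**Figure D3:**
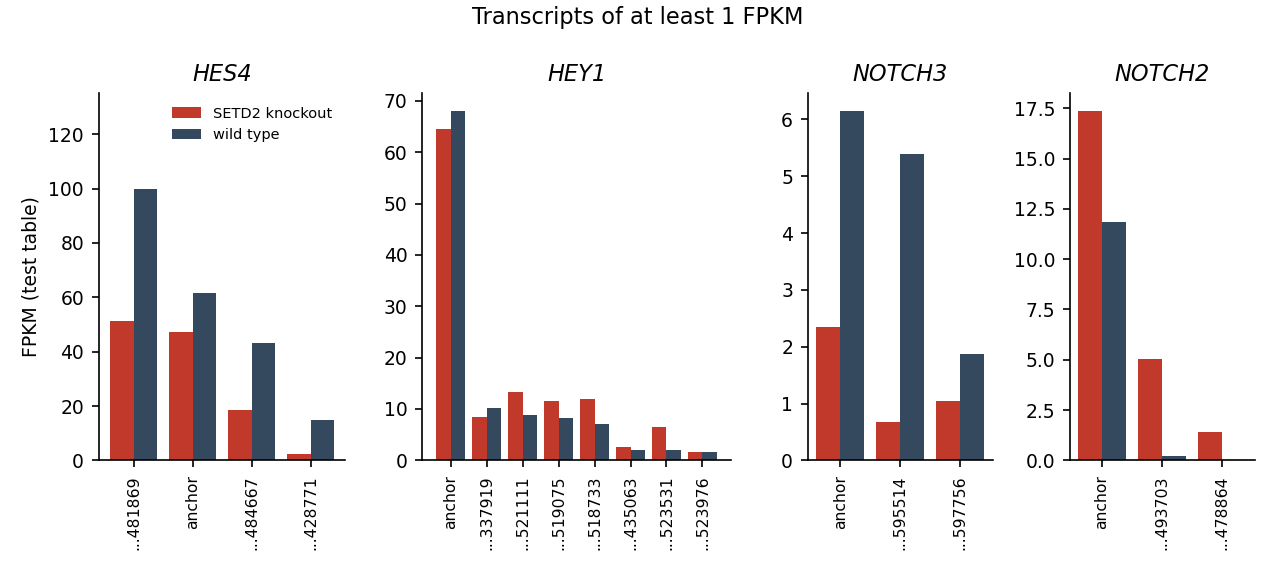
FPKM in the test table of each transcript reaching 1 FPKM in either group at HES4, HEY1, NOTCH3 and NOTCH2, in SETD2 knockout (red) and wild type (dark blue) cells, with a separate linear axis for each gene and the last 6 digits of each transcript identifier. All 4 HES4 transcripts are lower in KO cells, and the NOTCH2 locus holds minor transcripts that are near 0 in WT cells.

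At 6 of the 7 loci with several transcripts the anchor had the highest FPKM in both groups, and at HES4 it was ENST00000481869 that did so. In the tracking table these HES4 transcripts stood at 53.9 FPKM for the anchor and 53.4 FPKM for ENST00000481869 in KO cells. The share of the anchor differed most at NOTCH2, where it was 72.5% in KO cells and 98.0% in WT cells, and 77.4% and 98.0% in the tracking table. The difference lay in ENST00000493703, at 5.02 FPKM in KO cells and 0.213 FPKM in WT cells, and in ENST00000478864, at 1.39 FPKM in KO cells and listed at 0 in WT cells. By tracking these transcripts stood at 3.27 and 0.909 FPKM in KO cells, and at 0.208 FPKM and 0 in WT cells. Neither passed, with q = 0.991 for both in the authors' deposited table, and in the tracking table the knockout interval of ENST00000493703 ran from 0 to 16.4 FPKM. Of the 15 transcripts of at least 1 FPKM that were not anchors, 14 had a lower bound of 0 in both groups, whereas all 9 anchors had a lower bound above 0 in both.

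In order of level in the tracking table, the knockout anchors ran HEY1, HES4, HES1, NOTCH2, NOTCH1, DLL1, JAG1, NOTCH3 and HES5. The wild type order was HEY1, HES4, HES1, NOTCH2, NOTCH1, HES5, NOTCH3, DLL1 and JAG1. The first 5 places were held by the same genes in both groups. Between neighbours in these orders, intervals stood apart for NOTCH2 over NOTCH1 and NOTCH3 over HES5 in KO cells, and for DLL1 over JAG1 in WT cells, and overlapped elsewhere. HES5 was the lowest anchor in KO cells and stood sixth of the 9 in WT cells. At least 1 FPKM was listed in both groups for 7 anchors, the exceptions being HES5 in KO cells and JAG1 in WT cells.

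Sums over each locus were compared as log2((knockout FPKM + 1)/(wild type FPKM + 1)), a scale that understates the change of low genes. On it the sums of HES5, NOTCH3 and HES4 lay at -2.33, -1.36 and -0.87, those of JAG1 and NOTCH2 at 1.38 and 0.93, and the other 4 between -0.24 and 0.42. The median was -0.09 over the 9 loci and 0.05 over the 12620 loci that reached 1 FPKM in either group. By plain ratio, 5 of the 9 sums and 25.1% of all these loci were at least 1.5-fold apart. With the anchors alone the count was 3, because NOTCH2 and HES4 passed this bound only through their further transcripts. Ranked among all these loci, the log2 fold stood at percentile 0.955 for HES5, 2.49 for NOTCH3 and 5.25 for HES4, and at 97.0 for NOTCH2 and 98.9 for JAG1. In the tracking table these percentiles were 0.725 for HES5, 2.73 for NOTCH3, 9.43 for HES4, 94.2 for NOTCH2 and 98.7 for JAG1.

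**Figure D4:**
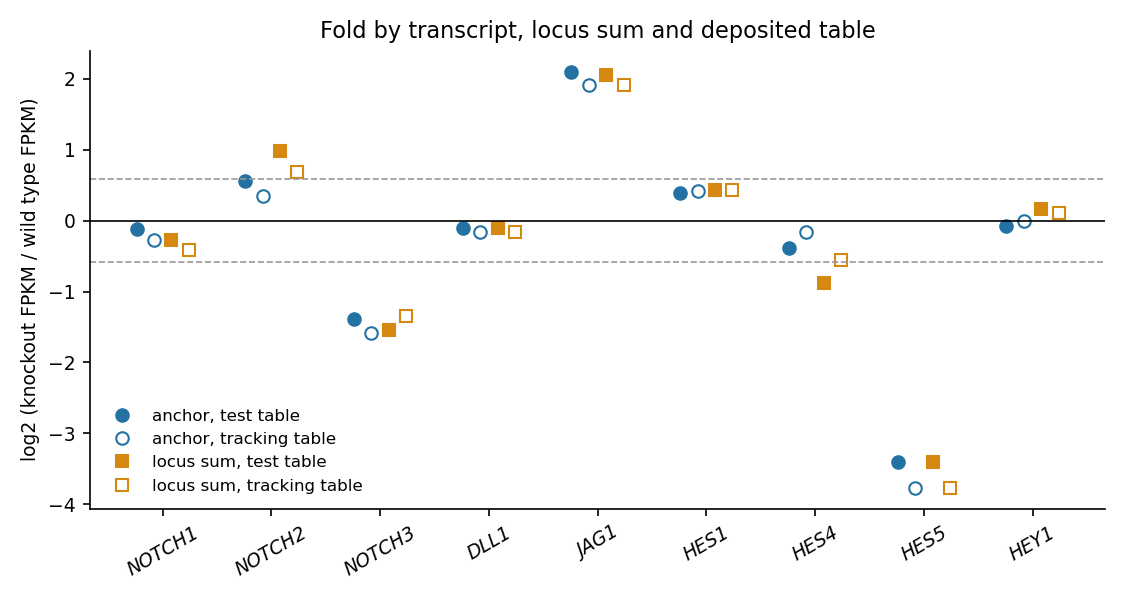
Log2 ratio of knockout over wild type FPKM, without a pseudocount, for the anchor (circles) and the locus sum (squares) of each gene in the test table (filled) and the tracking table (open); dashed lines mark a ratio of 1.5. NOTCH3, JAG1 and HES5 lie outside the dashed lines by all 4 measures, whereas NOTCH2 crosses a line only by its sums and HES4 only by its sum in the test table.

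The anchors were also placed among transcripts with a lower bound above 0 in both groups, a comparison chosen after the data were seen. Of 11746 such transcripts that reached 1 FPKM in either group, 17.1% were at least 1.5-fold apart and 1.19% had passed. Among them the log2 ratio stood at percentile 0.0255 for HES5, 1.19 for NOTCH3 and 99.7 for JAG1. The other 6 anchors stood between 18.1 for HES4 and 91.8 for NOTCH2. Without the condition on lower bounds, the set was the 56292 tested transcripts above 0 in both groups and reaching 1 FPKM in either. In that wider set the places were less extreme, at percentile 2.41 for HES5, 9.35 for NOTCH3 and 93.0 for JAG1. Transcripts that passed and were above 0 in both groups had a median fall of 3.09-fold over 119 transcripts and a median rise of 2.79-fold over 35, so the falls of HES5 and NOTCH3 lay above and below the median fall, and the rise of JAG1 above the median rise.

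**Figure D5:**
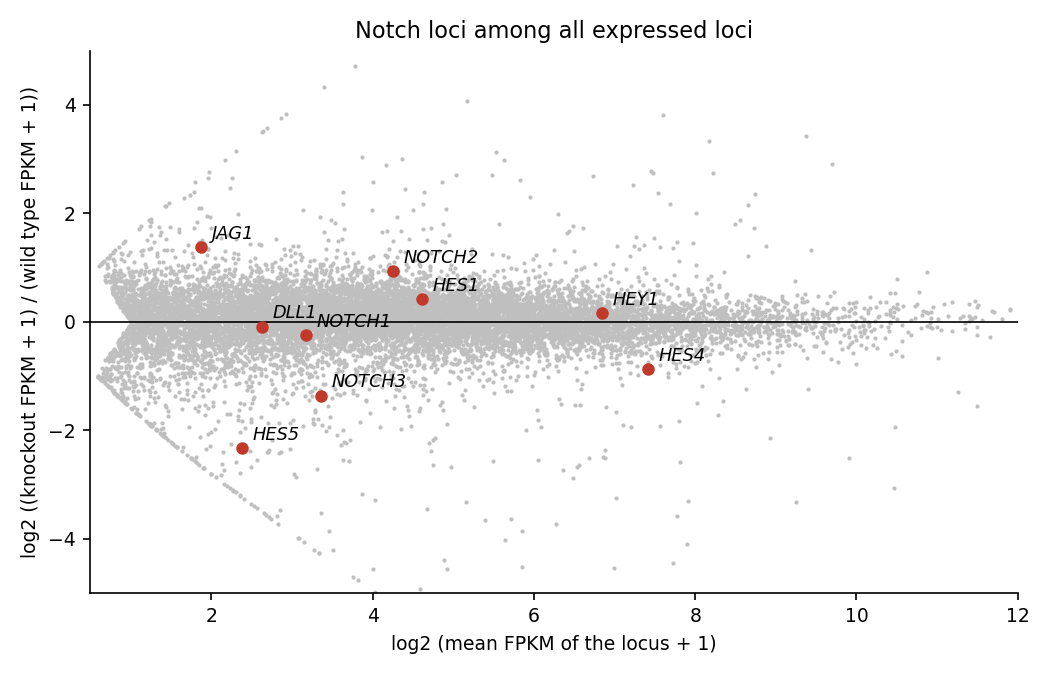
Each grey point is 1 of the 12620 loci reaching 1 FPKM in either group, with the mean FPKM of the locus on the horizontal axis and the difference of knockout from wild type on the vertical axis, both as log2 with 1 FPKM added; 50 loci lie outside the plotted range. Red points are the Notch loci: HES5, NOTCH3 and HES4 lie toward or under the lower edge of the main cloud, JAG1 and NOTCH2 toward its upper edge, and the other 4 within it.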

How the data were processed

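Total RNA was sequenced from 3 knockout and 3 wild type libraries. Ribosomal RNA was depleted from 3 knockout and 2 wild type libraries, per the labels' protocols; 1 WT library is labelled with the protocol of the ChIP samples. The submitters' processing notes name TopHat, Cuffdiff, Bowtie 1.1.2 and hg19, without role. No source used here names the annotation. The authors deposited FPKM as 1 value per transcript and group, in a tracking table with bounds and in a table of tests. The table of tests also holds a log2 fold with WT in the numerator, a score for each test (its statistic, with no fixed range), a p-value and a q-value, per the file headers. The table named for transcripts was identical to that named for genes.

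Locus positions (hg19, as in the files) were made 1-based. Transcripts whose locus holds the point given for a gene were taken, and FPKM were summed per locus without failed estimates. Ratios were recomputed from the FPKM as knockout over wild type. Both p and q are the authors', called at 0.05. No source used here says which sources of spread they take into account, and any spread between libraries may be only technical. No test between libraries was possible. A pseudocount of 1 FPKM was used for log2 folds of sums. The summing per locus was tested on simulated data and returned the folds put in, which checks the arithmetic only. The rule for named genes took all 9 genes and, within a locus, the anchor, any transcript that passed and the most abundant transcript; others named here were chosen after their values were seen. A list of other Notch pathway genes was not used, because 0 of the 204092 identifiers matched a table of gene names. Members, lists and alternatives were chosen with earlier results of these data known. Software was Python 3.11.15 with numpy 2.4.6, pandas 2.3.3 and matplotlib 3.10.9.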

Additional observations from a re-analysis of the deposited data

How the results depend on the processing

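The fold of each locus sum was recomputed with the tracking table, a pseudocount of 0.1 FPKM, no pseudocount, centring on the median of all loci (a shift of 0.05 in log2), rescaling without mitochondrial loci and loci of up to 300 bases, the anchor alone, and tested transcripts alone. Of the 63 gene values, 60 stayed within a factor of 1.5 of the value reported, and all of the 3 that did not came from a smaller pseudocount: HES5 at -3.24 with 0.1 FPKM and -3.41 with none, and JAG1 at 2.05 with none. HEY1 was the gene whose direction depended on a setting, with a log2 fold of -0.08 for its anchor and 0.16 for its sum. The count of loci at least 1.5-fold apart on this scale was 5, was 3 with anchors alone, because only the anchors then counted, and was 4 with the tracking table. The loci outside the 5th to 95th percentile numbered 4, and 3 with the tracking table, where NOTCH2 stood at 94.2. The count of called transcripts was 3 under a q-value of 0.03, under a minimum of 1 FPKM in a group and with anchors alone. These settings could not change it. All 3 were anchors that reached 1 FPKM in a group and had q = 0.0220 in the authors' deposited table. Alternatives for the order of levels, the place among loci and the top transcript were in part added after seeing the data, and the top transcript of HES4 differed between groups in the tracking table. No paired analysis was possible because the tables hold 1 value per group and none per library, and for the same reason leaving out each replicate was not run. Depth is unknown, so transcripts with a lower bound of 0 permit no statement beyond their listed values.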

Other observations

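Loci around each Notch gene were compared with it, over 1 Mb on either side, a window chosen after the data were seen. Only loci above 0 in both groups and reaching 1 FPKM in either were taken. Neighbours at 0 in a group are thus not among the counts below. Around HES5 the 25 neighbouring loci had a median log2 ratio of knockout over wild type of 0.04 and a range of -1.48 to 1.03, and none lay below the HES5 value of -3.41. Around NOTCH3 the 21 neighbours had a median of 0.12 and a lowest value of -0.33, against -1.54 for the NOTCH3 sum, so all of them lay above it. Around JAG1 all 5 neighbours lay below its sum of 2.05, the highest at 0.83. By value, the 3 genes whose anchors passed stood outside the range of the loci next to them, in the knockout relative to the wild type. They were chosen and had passed on these same values, so nothing is read from that place.

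The NOTCH2 sum at 0.99 also lay above all 8 of its neighbours, whose highest value was 0.67; with the anchor alone NOTCH2 was at 0.55. HES4 was lower than 42 of its 45 neighbours, with 3 below its sum of -0.88. The values of HES1, NOTCH1 and DLL1 lay within the range of their neighbours, and HEY1 at 0.16 lay above both of its 2. In the loci taken around NOTCH1 3 transcripts passed the authors' q-value of 0.05 and around HES5 1 did. In those taken around the other 7 genes none did.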
